A study of Mus musculus with 3 samples.

Results

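The Wnt ligands, receptors and modulators of the laryngeal cells were 50 of the 33696 features. Each was included by a rule on its gene symbol that used no measured value. The choice of this gene family was made with earlier results of these data known. The 50 genes were 19 Wnt ligands, 10 Frizzled receptors, 2 LRP co-receptors, 4 R-spondins, 3 R-spondin receptors, 2 membrane ubiquitin ligases, 9 secreted inhibitors and the feedback target *Axin2*. Of these, 41 had at least 100 UMIs (unique molecular identifiers, 1 for each captured transcript) over all cells and are described by value. The other 9, *Wnt1*, *Wnt2*, *Wnt3*, *Wnt7a*, *Wnt8a*, *Wnt8b*, *Wnt9b*, *Dkk1* and *Dkk4*, had between 1 and 96 UMIs.

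The data were single-cell RNA sequencing of 3 libraries of tdTomato-sorted cells, each a pool of 10 murine larynges from 5 males and 5 females. All mice were *Lrig1*CreERT2/+; ROSA26 CAG-LSL-tdTomato/+ animals given tamoxifen and collected 24 h after recombination, so the libraries formed a single condition with no untreated group. Cre was driven from the *Lrig1* locus, which marks cells that expressed *Lrig1* at labelling together with their descendants. No feature of the deposited counts stood for tdTomato or Cre, so the sort itself was not checked.

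Wnt ligands are lipid-modified secreted proteins that are received by a Frizzled receptor, joined in the beta-catenin branch by the co-receptor LRP5 or LRP6. R-spondins, which bind LGR4, LGR5 or LGR6, prolong the signal by removing the ubiquitin ligases ZNRF3 and RNF43 that clear Frizzled from the membrane. Secreted frizzled-related proteins and WIF1 bind the ligands, Dickkopf proteins of the DKK1 type block the co-receptors, and *Axin2* is a widely used transcriptional target that feeds back on the pathway. Stratified and airway epithelia rely on exchange of these signals with the connective tissue below them.

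The 3 libraries kept 13222, 7201 and 24119 cells, with median depths between 10588.5 and 14055 UMIs per cell. Levels are given in CPM, the UMIs of a gene scaled to a total of 1000000 UMIs over the cells of a class in a library, in the order of libraries 1, 2 and 3. Cells were put in a class by UMIs of fixed marker genes, none of them a Wnt pathway gene, and 20.4% of cells, which carried markers of more than 1 lineage, were left out as mixed. Most of these turned on the fibroblast marker *Dcn*. Mixed cells numbered 2097, 1059 and 5949 with *Dcn* in the gates and 618, 250 and 727 without it. With *Dcn* kept, as used here, the classes held 26361 epithelial cells, 4491 fibroblasts, 1525 muscle satellite cells, 578 endothelial cells and 267 immune cells. Every marker of its own list was detected in each of these classes in every library, and the fibroblast list summed to between 83.2 and 135 CPM in epithelial cells against 12765 to 16789 CPM in fibroblasts. The same lists set the classes, so this gap follows from the gates and is no independent check of them. Between 24 and 119 barcodes were shared by a pair of libraries. Of the 578 endothelial cells, 500 came from library 1.

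Upstream sequence is shown for 4 genes that the results turn on: *Wnt4*, the ligand with the most UMIs in the epithelium, *Wnt16*, a fibroblast ligand, *Wnt11*, a ligand of ciliated cells and fibroblasts, and *Axin2*. Each line gives the 250 bases before the RefSeq transcription start, 5′ to 3′ on the gene's strand, from the table for GRCm38.p6, an older build than the GRCm39 of the counts. Capitals mark CTTTGA or its reverse complement TCAAAG, the core letters of the site that TCF/LEF factors bind.
Wnt4, chr4:137277385-137277634, plus strand: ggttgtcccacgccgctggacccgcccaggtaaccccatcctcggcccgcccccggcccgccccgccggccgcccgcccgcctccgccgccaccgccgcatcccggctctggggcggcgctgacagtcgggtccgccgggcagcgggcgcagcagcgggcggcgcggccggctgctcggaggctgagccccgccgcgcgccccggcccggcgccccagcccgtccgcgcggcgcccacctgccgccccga
Wnt16, chr6:22287977-22288226, plus strand: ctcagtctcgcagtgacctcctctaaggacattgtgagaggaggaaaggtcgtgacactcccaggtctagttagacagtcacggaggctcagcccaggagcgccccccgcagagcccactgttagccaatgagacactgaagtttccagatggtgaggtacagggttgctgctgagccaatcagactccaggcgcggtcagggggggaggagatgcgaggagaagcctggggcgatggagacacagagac
Wnt11, chr7:98834862-98835111, plus strand: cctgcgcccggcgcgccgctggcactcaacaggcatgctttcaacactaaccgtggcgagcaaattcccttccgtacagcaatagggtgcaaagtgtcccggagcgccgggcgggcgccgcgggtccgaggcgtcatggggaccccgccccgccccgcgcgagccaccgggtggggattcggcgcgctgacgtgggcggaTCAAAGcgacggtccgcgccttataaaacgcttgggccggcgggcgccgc
Axin2, chr11:108920099-108920348, plus strand: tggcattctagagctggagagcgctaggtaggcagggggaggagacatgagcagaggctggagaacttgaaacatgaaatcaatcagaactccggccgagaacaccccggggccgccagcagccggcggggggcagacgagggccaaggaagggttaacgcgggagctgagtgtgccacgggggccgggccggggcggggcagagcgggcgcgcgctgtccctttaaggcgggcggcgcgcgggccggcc
The 6 letters were found once, in *Wnt11*, 50 bases before its start, and not in the windows of *Wnt4*, *Wnt16* or *Axin2*. Over all 32851 promoters of the table, 13.8% held them on either strand. Of the 32 Wnt pathway genes present in the table, 4 did in at least 1 window: *Wnt5b*, *Wnt11*, *Fzd1* and *Dkk1*. The *Wnt4* window was 85.2% G or C and held 44 CG pairs, whereas that of *Wnt16* was 59.2% G or C with 9 CG pairs. *Wnt11* had 37 CG pairs and *Axin2* had 24, against a median of 6 over all promoters. A match is a run of letters and no measurement of binding.

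The first comparison set epithelial cells against fibroblasts, the question being which class carries the ligands and which the receptors. The fibroblasts came from dissociated larynges, so their place in the tissue was not known. Both classes carried ligands, but mostly different ones. Of 42 genes that passed the filter on low counts, 13 were higher in epithelial cells and 26 in fibroblasts at an adjusted p under 0.05 (edgeR quasi-likelihood test, n = 3 libraries a class). Over all 18500 genes tested, 31.3% were higher in epithelial cells and 28.7% in fibroblasts, so calls were common in this contrast. With library as a block 40 of 44 were called, against 64.6% of all genes. The median log2 difference was -1.82 for the 42 Wnt pathway genes and 0.07 for all genes. The genes that were not called were *Wnt5b*, *Lrp5* and *Fzd8*, and 8 of the 9 scarce genes were not tested, *Wnt9b* being the exception.

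**Figure D1:**
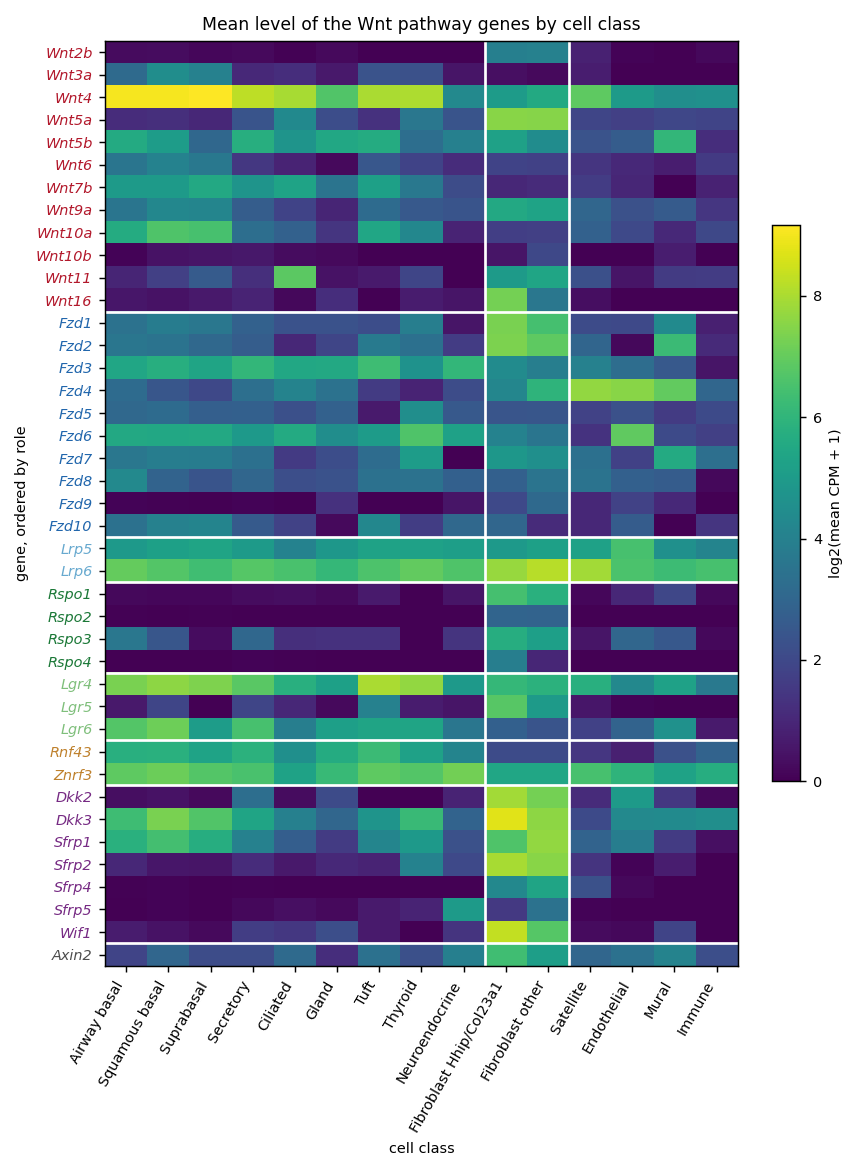
Mean level of the 41 Wnt pathway genes with at least 100 UMIs (rows, by role) in 15 cell classes (columns), as log2(mean CPM + 1) over libraries with at least 20 cells of the class. *Wnt4* was high in most epithelial columns at the left, though not in neuroendocrine cells. The summed R-spondin and inhibitor levels were highest in the 2 fibroblast columns, though single genes such as *Rspo4* were low in the second. Colours compare classes within a gene and are not corrected for how well each gene is captured.

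The 5 ligand genes higher in the epithelium were *Wnt4*, *Wnt10a*, *Wnt7b*, *Wnt3a* and *Wnt6*. *Wnt4*, a ligand that acts through both beta-catenin and other branches in a way that depends on the tissue, lies at chr4:137004373-137027037 on the plus strand in GRCm39. Its level was 450, 474 and 537 CPM in epithelial cells and 30.6, 39.2 and 39.2 CPM in fibroblasts. The ranges were far apart, and the log2 difference was 3.77 with SE 0.144 (adjusted p = 2.08e-06). Immune cells, used here to gauge free RNA, read 12.4, 15.4 and 42.3 CPM, from 173, 47 and 47 cells. The fibroblast value lay above the immune value in libraries 1 and 2 and below it in library 3. Of all ligand UMIs in epithelial cells, *Wnt4* made up 73% ± 2.62 (SD, n = 3).

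*Wnt10a*, a ligand of skin, hair and tooth epithelium, read 58.1, 44.1 and 93.2 CPM in epithelial cells and 1.67, 1.81 and 3.19 CPM in fibroblasts, a log2 difference of 4.84 (SE 0.384, adjusted p = 3.69e-05). *Wnt7b*, known from lung and bladder epithelium, had 30.6, 28.5 and 37.3 CPM against 1.04, 0.906 and 1.25 CPM. *Wnt3a*, a classical activator of beta-catenin, had 11.1, 12.1 and 19.5 CPM against 0.208, 0.181 and 0.342 CPM. In each of these 3 genes the lowest epithelial library exceeded the highest fibroblast library more than 10 times over. *Wnt6* differed less, with 9.59, 10.5 and 13.1 CPM against 2.50, 2.36 and 2.62 CPM (log2 difference 2.15, SE 0.201, adjusted p = 8.34e-05).

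Fibroblasts had a different set of ligands. *Wnt5a*, the main ligand of the branch that acts on cell polarity and movement without beta-catenin, read 174, 134 and 232 CPM in fibroblasts and 3.80, 1.79 and 2.45 CPM in epithelial cells. *Wnt16*, a ligand best known from bone and joint tissue, read 103, 110 and 99.8 CPM in fibroblasts and 0.724, 0.318 and 0.560 CPM in epithelial cells. Neither overlapped between the classes, and *Wnt16* varied less between libraries than *Wnt5a*. Their log2 differences, epithelial over fibroblast, were -6.07 (SE 0.374, adjusted p = 1.1e-05) and -7.57 (SE 0.277, adjusted p = 1.87e-06). *Wnt2b* had 14.7, 12.2 and 16.9 CPM in fibroblasts and at most 0.245 CPM in an epithelial library. *Wnt9a* was present on both sides, at 38.6, 37.9 and 52.0 CPM in fibroblasts and 11.5, 14.1 and 14.7 CPM in epithelial cells (log2 difference -1.67, adjusted p = 0.000143). *Wnt11* had 37.9, 48.0 and 16.9 CPM in fibroblasts against 12, 9.0 and 4.47 CPM in epithelial cells, library 3 being lowest on both sides (log2 difference -1.97, adjusted p = 0.00803, and 0.0602 without library 2). Ciliated cells exceeded fibroblasts in every library. *Wnt10b* was scarce, at 1.27 ± 1.14 and 0.319 ± 0.204 CPM, and its call (adjusted p = 0.0376) was lost without library 1 (0.469), without library 2 (0.075) and with library as a block (0.053). *Wnt9b*, with 26 UMIs in all cells, was also called.

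*Wnt5b*, a close relative of *Wnt5a*, did not separate the classes. It read 31.1, 30.4 and 37.1 CPM in epithelial cells and 28.4, 25.2 and 41.3 CPM in fibroblasts, ranges that overlapped, with a log2 difference of 0.06 (SE 0.201, adjusted p = 0.829). The pair thus differed in pattern, since *Wnt5a* was higher in fibroblasts in every library.

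Several ligand genes are neighbours in the genome. *Wnt6* and *Wnt10a* lie 5699 bases apart on chromosome 1, on the same strand, and both were higher in the epithelium. *Wnt3a* and *Wnt9a* lie 15982 bases apart on chromosome 11, on opposite strands, and went opposite ways, *Wnt3a* higher in epithelial cells and *Wnt9a* in fibroblasts. *Wnt9b* and *Wnt3* lie 24320 bases apart on the same chromosome, and *Wnt10b* and *Wnt1* overlap by 2308 bases on opposite strands. These last 4 genes had between 26 and 309 UMIs in all cells.

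Receptors were divided as well. *Fzd1* read 134, 127 and 144 CPM in fibroblasts and 9.43, 9.27 and 11.7 CPM in epithelial cells, and *Fzd2* read 133, 104 and 203 CPM against 7.65, 7.19 and 11.3 CPM. Both are receptors with wide ligand use, and both were over 10 times higher in each fibroblast library than in its epithelial partner. *Fzd3* and *Fzd6*, the receptors of planar cell polarity, went the other way. *Fzd3* had 48.5, 47.7 and 48.9 CPM in epithelial cells and 16.3, 17.2 and 21.9 CPM in fibroblasts (log2 difference 1.40, SE 0.136, adjusted p = 0.000104). *Fzd6* had 45.9, 44.7 and 43.5 CPM against 13.7, 14.3 and 14.2 CPM (log2 difference 1.68, SE 0.097, adjusted p = 8.12e-06). Neither overlapped between the classes, and both varied little between libraries.

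Among the other Frizzled genes, *Fzd5* and *Fzd10* were also higher in epithelial cells, by 0.88 and 1.12 on the log2 scale (adjusted p = 0.0737 for *Fzd5* without library 1), and *Fzd4*, *Fzd7* and *Fzd9* were higher in fibroblasts. *Fzd5* had 7.85 ± 0.214 CPM against 4.35 ± 0.514 CPM and *Fzd10* 11.7 ± 3.24 against 5.25 ± 1.45 CPM, and *Fzd10* moved between libraries on both sides. *Fzd7* had 26.3 ± 5.20 CPM in fibroblasts against 11.9 ± 1.92 CPM, and *Fzd9* had 4.55 ± 0.638 CPM there and at most 0.0728 CPM in an epithelial library. *Fzd8* read 9.48 ± 0.517 CPM in epithelial cells and 7.38 ± 1.46 CPM in fibroblasts (SD, n = 3) and was not called (adjusted p = 0.0745). DESeq2 called it higher in epithelial cells (adjusted p = 0.0221), as did edgeR without doublet removal (0.0444) and with gates without *Dcn* (0.00679). The co-receptor *Lrp6* was higher in fibroblasts, at 231, 226 and 255 CPM against 114, 113 and 100 CPM, while *Lrp5* read 26.3, 36.6 and 31.5 CPM in fibroblasts and 32.7, 35.5 and 31.5 CPM in epithelial cells. The *Lrp5* ranges overlapped, and its adjusted p was 0.492.

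**Figure D2:**
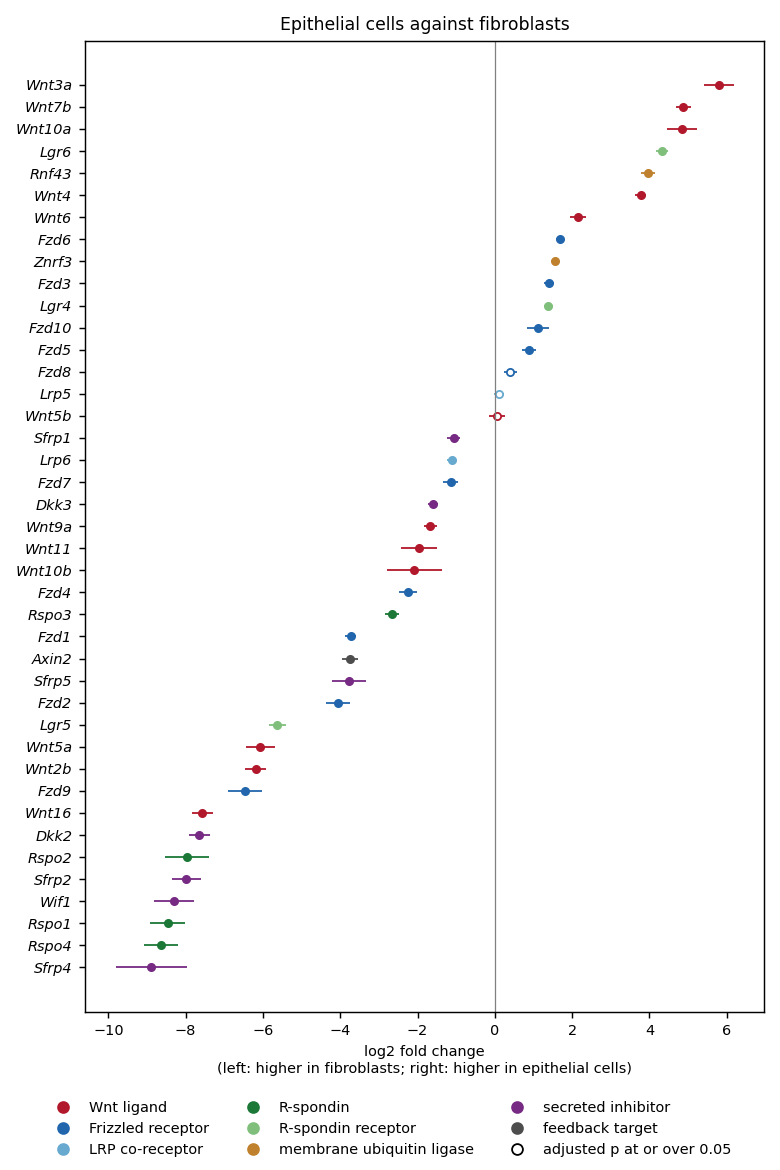
Log2 fold change of epithelial over fibroblast sums for 41 Wnt pathway genes, with SE derived from the edgeR F value over 3 libraries a class (filled points, adjusted p under 0.05, and open points, not called). Ligands stand at both ends of the plot, from *Wnt3a* at 5.79 to *Wnt16* at -7.57, and R-spondins and most inhibitors lie at the fibroblast end.

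R-spondin genes were higher in fibroblasts. The 4 R-spondin genes summed to 134, 124 and 161 CPM in fibroblasts and 8.35, 7.81 and 6.53 CPM in epithelial cells. *Rspo1* had 73.6, 65.5 and 91.0 CPM in fibroblasts and at most 0.332 CPM in an epithelial library. *Rspo3* was the one R-spondin with a measurable epithelial level, 8.14, 7.72 and 6.13 CPM, against 44.4, 40.2 and 54.7 CPM in fibroblasts (log2 difference -2.66, SE 0.185, adjusted p = 1.93e-05). *Rspo2* and *Rspo4* had 6.65 ± 2.48 and 9.79 ± 3.15 CPM in fibroblasts (SD, n = 3).

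The receptors of R-spondin did not follow one direction. *Lgr6*, a stem cell gene of skin and its appendages, read 98.9, 100 and 125 CPM in epithelial cells and 5.04, 5.08 and 6.10 CPM in fibroblasts (log2 difference 4.32, SE 0.152, adjusted p = 1.71e-06). *Lgr5*, the intestinal and hair follicle stem cell gene, read 75.2, 91.7 and 81.1 CPM in fibroblasts and 1.75, 1.14 and 2.00 CPM in epithelial cells (log2 difference -5.63, SE 0.223, adjusted p = 2.19e-06). *Lgr4*, the broadly used receptor, was higher in epithelial cells at 163, 150 and 187 CPM against 64.0, 62.0 and 67.7 CPM. The 3 paralogues thus had 3 patterns, *Lgr6* epithelial, *Lgr5* stromal and *Lgr4* in both with the higher level in the epithelium.

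Both ubiquitin ligases that LGR and R-spondin act on were higher in epithelial cells. *Rnf43* had 49.1, 48.1 and 59.6 CPM against 3.83, 2.54 and 3.31 CPM in fibroblasts (log2 difference 3.96, SE 0.184, adjusted p = 3.47e-06). *Znrf3* had 116, 117 and 130 CPM against 38.3, 42.8 and 43.7 CPM (log2 difference 1.56, SE 0.0964, adjusted p = 1.11e-05). *Axin2* went the opposite way to these 2 genes, which are also known as targets of the pathway. It read 71.5, 64.4 and 61.0 CPM in fibroblasts and 3.66, 4.87 and 5.99 CPM in epithelial cells, a log2 difference of -3.75 (SE 0.201, adjusted p = 5.94e-06). With every cell thinned to 5000 UMIs, 25.4% ± 1.43 of fibroblasts and 2.53% ± 0.333 of epithelial cells had an *Axin2* UMI (SD, n = 3). The epithelial share was close to that of immune cells, 2.63% ± 1.63, whose level of *Axin2* rests on 8 UMIs. Median depth before thinning was 13714 to 17568 UMIs per library in epithelial and 6882 to 10429 in immune cells.

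Secreted inhibitors were a fibroblast group. All 7 that were tested were higher in fibroblasts, and their summed level with the 2 scarce ones was 1240, 1091 and 1261 CPM in fibroblasts against 169, 194 and 178 CPM in epithelial cells. *Wif1* had 202, 215 and 339 CPM in fibroblasts and at most 1.27 CPM in an epithelial library. *Sfrp2* had 244, 210 and 218 CPM against at most 1.15 CPM, and *Dkk2* had 231, 180 and 209 CPM against at most 1.36 CPM. These 3 genes had low epithelial counts. *Dkk3*, a divergent Dickkopf protein, and *Sfrp1* were present on both sides. *Dkk3* read 344, 353 and 358 CPM in fibroblasts and 106, 130 and 105 CPM in epithelial cells (log2 difference -1.61, SE 0.126, adjusted p = 3.36e-05), and *Sfrp1* read 168, 118 and 115 CPM against 59.9, 61.0 and 69.4 CPM (log2 difference -1.07, adjusted p = 0.00149). Of the inhibitor UMIs in epithelial cells, *Dkk3* made up 63% ± 4.09 and *Sfrp1* 35.3% ± 3.71. *Sfrp5* was scarce, at 4.22 ± 1.74 CPM in fibroblasts. *Sfrp4* was highest in library 1, with 48.7, 11.1 and 16.0 CPM in fibroblasts.

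**Figure D3:**
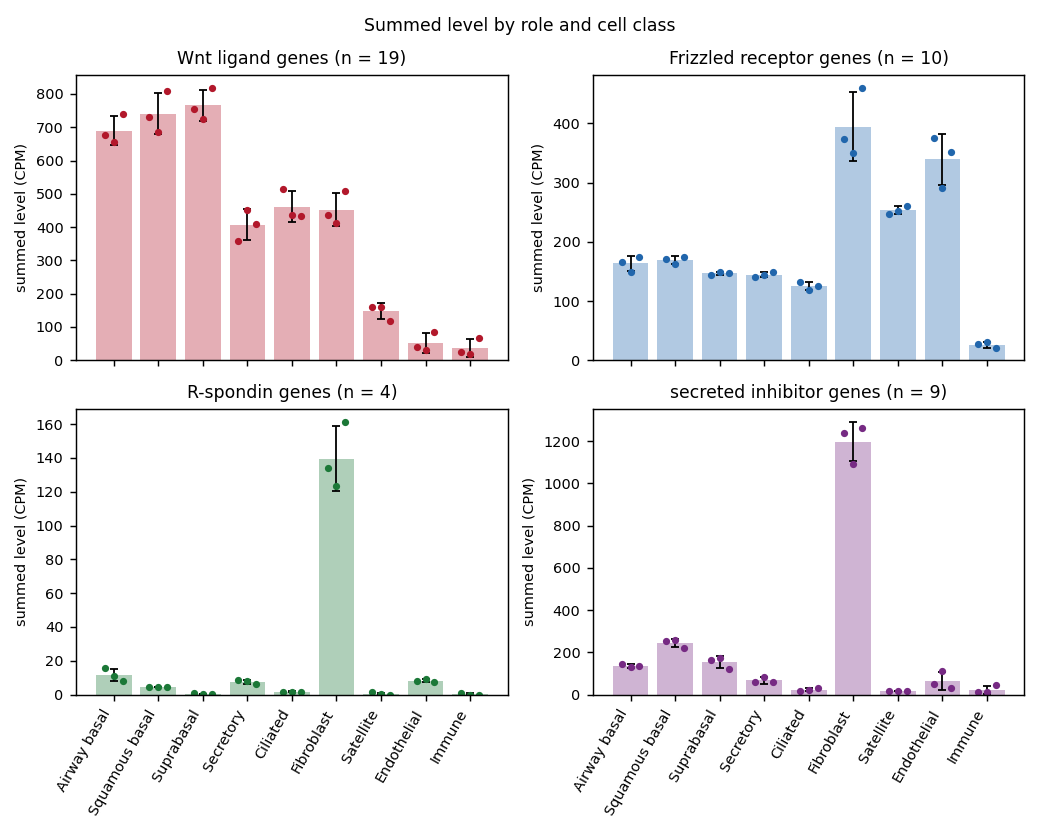
Summed level (CPM) of the ligand, Frizzled, R-spondin and secreted inhibitor genes in 9 cell classes. Bars are means, error bars SD and points the 3 libraries. Of the 9 classes shown, ligand sums were highest in the squamous and suprabasal classes, at 741 and 765 CPM. R-spondin and inhibitor sums were highest in fibroblasts, at 139.6 and 1197 CPM. Basal cells with both *Nkx2-1* and *Tmprss11a* UMIs, not shown, had a ligand sum of 788 CPM.

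Ligand and Frizzled UMIs were also counted by cell. At 5000 UMIs per cell, 90.3% ± 2.46 of epithelial cells had a UMI of at least 1 ligand, 53.7% ± 2.00 had one of a Frizzled gene and 49.0% ± 2.95 had both. The product of the separate shares was 48.5% ± 3.15, close to the share with both. With a ligand UMI in 90.3% of cells, the share with both could not lie far from this product. In fibroblasts the ligand, Frizzled and joint shares were 74.7% ± 4.51, 79.0% ± 6.72 and 59.9% ± 8.07, with a product of 59.2% ± 8.59. Satellite and endothelial cells had a Frizzled UMI more often than a ligand UMI, with a Frizzled UMI in 64.4% ± 3.89 and 71.7% ± 11.7 of cells and a ligand UMI in 39.1% ± 4.93 and 18.8% ± 7.81. Immune cells had a ligand UMI in 11.5% ± 2.44 and a Frizzled UMI in 9.90% ± 5.62, which gauges the background. Thinning left out shallower cells and kept 22501 epithelial cells, 3711 fibroblasts, 1045 satellite, 399 endothelial and 191 immune cells.

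Within the epithelium, basal cells, gated on *Trp63* and *Krt5*, were compared with secretory cells, gated on secretory markers and no *Trp63* UMI. The *Trp63*-high secretory cells that the paper proposes to be immature were thus left out of the secretory class. Median depth was 15353 to 20381 UMIs per library in basal and 8039 to 13896 in secretory cells. Basal cells had more of *Wnt3a*, *Wnt10a* and *Wnt6* and of the inhibitors *Sfrp1* and *Dkk3*, and secretory cells had more of *Wnt5b* and *Fzd3*. Of 34 genes tested, 13 were higher in basal and 6 in secretory cells (edgeR), against 13.0% and 16.6% of all 15927 genes. With library as a block 17 and 9 genes were called, against 23.4% and 24.4% of all 16562 genes. The median log2 difference was 0.31 for these 34 and 0.01 for all genes. *Wnt10a* read 83.2 ± 23.7 CPM in basal and 6.68, 6.25 and 13.6 CPM in secretory cells (log2 difference 2.98, SE 0.291, adjusted p = 0.000203). *Wnt6* read 14.5, 14.4 and 15.4 CPM against 1.30, 1.21 and 2.84 CPM (log2 difference 2.77, SE 0.25, adjusted p = 0.000133). *Wnt3a* was the ligand with the largest difference in this contrast, 3.74 on the log2 scale (SE 0.387, adjusted p = 0.000268). *Wnt4* differed less, at 541 ± 26.4 CPM in basal against 270, 360 and 286 CPM in secretory cells (log2 difference 0.60, SE 0.132, adjusted p = 0.0106, and 0.148 without library 1).

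The inhibitor *Sfrp1* read 83.5, 77.1 and 81.1 CPM in basal and 11.5, 17.0 and 16.9 CPM in secretory cells, a log2 difference of 2.21 (SE 0.137, adjusted p = 2.09e-05). *Dkk3* was 1.63 higher on the same scale (SE 0.166, adjusted p = 0.000246). On the secretory side stood *Wnt5b*, with 41.2, 50.3 and 64.8 CPM against 34.2 ± 3.74 CPM in basal cells (log2 difference -0.82, SE 0.139, adjusted p = 0.00318), and the polarity receptor *Fzd3*, with 69.3, 64.7 and 64.5 CPM against 47.8, 48.6 and 48.7 CPM (log2 difference -0.67, SE 0.0826, adjusted p = 0.000639). *Dkk2* was called higher in secretory cells (adjusted p = 0.0111), where it read 4.08, 18.7 and 3.62 CPM. Library 2 was far above the other two, and the adjusted p was 0.107 without library 1. The count of called genes fell to 10 without library 1, while calls over all genes fell from 4705 of 15927 to 1834 of 16164. Leaving out library 1 ended the calls of *Fzd1*, *Fzd4*, *Fzd6*, *Fzd8*, *Rnf43*, *Wnt5a* and *Znrf3* too. *Fzd4*, *Fzd6*, *Fzd8* and *Znrf3* missed the threshold once cells were thinned to 5000 UMIs.

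**Figure D4:**
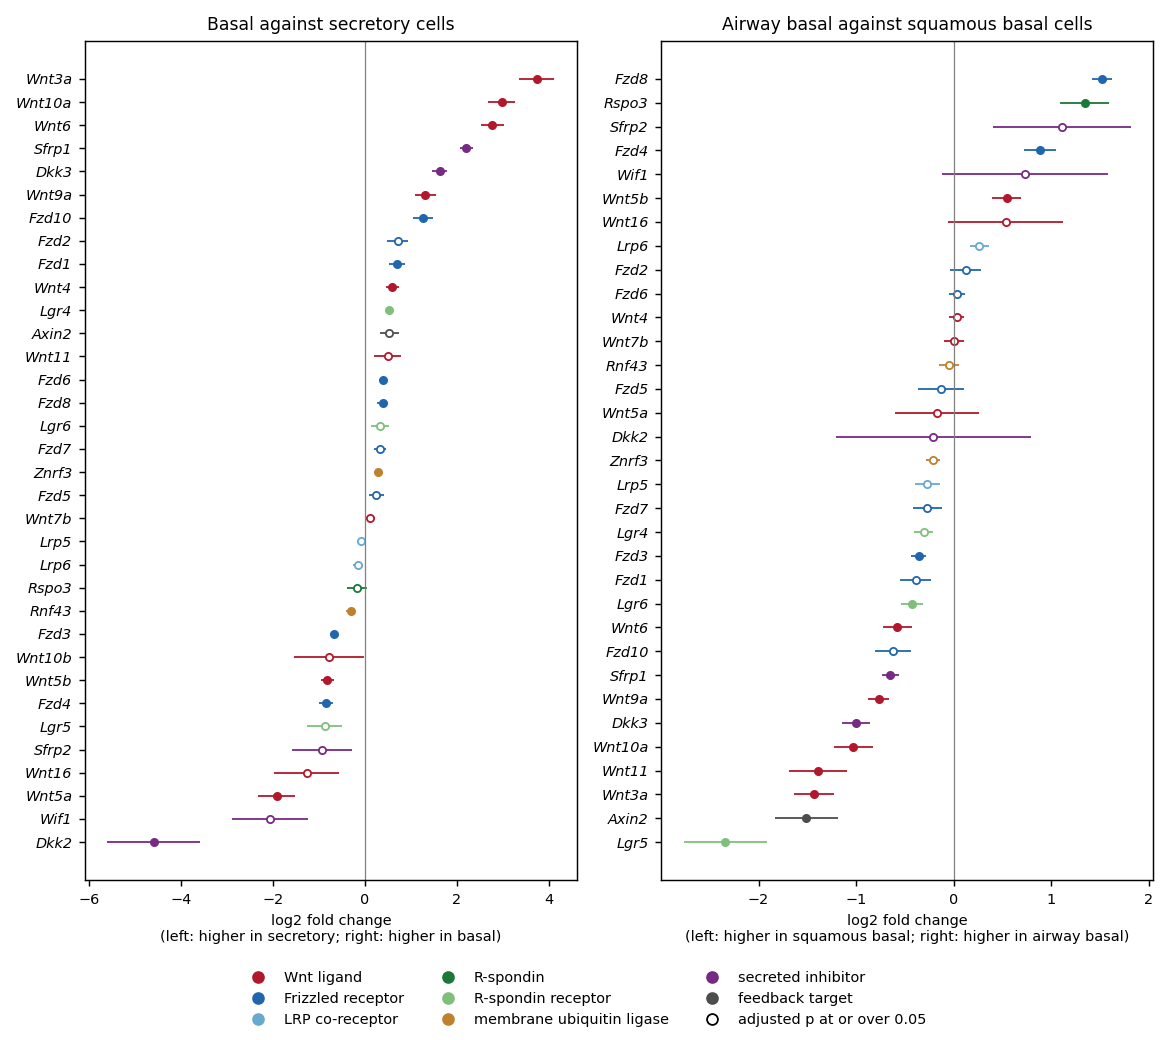
Log2 fold change with SE for basal over secretory sums (left) and airway basal over squamous basal sums (right), edgeR over 3 libraries a class, filled where the adjusted p was under 0.05. *Wnt3a* and *Wnt10a* were higher in basal cells at the left and in squamous basal cells at the right, and *Fzd8* stood at the airway end with 1.52.

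Basal cells were further divided into 2453 airway basal cells, with an *Nkx2-1* and no *Tmprss11a* UMI, and 8147 squamous basal cells, with the reverse. The 3717 basal cells with both and 1089 with neither were left out. Cells with both had mean sums of 788 CPM for ligands, 11.4 CPM for R-spondins and 249 CPM for inhibitors. In airway cells these were 690, 11.6 and 136 CPM, and in squamous cells 741, 4.61 and 244 CPM. With gates without *Dcn*, airway basal cells numbered 899, 463 and 2725, against 545, 331 and 1577. Squamous basal cells then numbered 1497, 1510 and 6418, against 1396, 1421 and 5330. *Wnt3a* and *Wnt10a* were higher on the squamous side, while *Wnt4* was not called. Of 33 genes tested, 4 were higher in airway and 11 in squamous basal cells (edgeR), against 9.39% and 7.99% of all 15266 genes. With library as a block 5 and 15 genes were called, against 17.2% and 18.5% of all 15836 genes. The median log2 difference was -0.21 for these 33 and -0.01 for all genes. *Wnt3a* had 9.40, 7.66 and 7.22 CPM in airway and 19.1, 17.1 and 28.3 CPM in squamous basal cells (log2 difference -1.43, SE 0.207, adjusted p = 0.00261). *Wnt10a* had 49.9, 44.0 and 51.9 CPM against 103, 66.4 and 128 CPM (log2 difference -1.03, SE 0.2, adjusted p = 0.00993, and 0.152 without library 1). In both genes the ranges were apart, library 3 being highest on the squamous side. *Wnt4* had 522, 506 and 564 CPM against 509, 505 and 541 CPM, a log2 difference of 0.03 (SE 0.0763, adjusted p = 0.872), and *Wnt7b* had 31.0 ± 0.356 CPM against 30.8 ± 4.49 CPM. *Wnt6* was also called, at 12.1, 11.3 and 8.97 CPM against 15.5, 14.7 and 17.3 CPM (log2 difference -0.58, SE 0.15, adjusted p = 0.0329). It missed the threshold without library 1, 2 or 3 (adjusted p = 0.147, 0.0746 and 0.154) and with thinned cells (0.127).

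The feedback gene *Axin2* was low in both but higher in squamous basal cells, at 5.63, 6.94 and 8.56 CPM against 2.62, 3.83 and 1.62 CPM (log2 difference -1.51, SE 0.323, adjusted p = 0.0153). An *Axin2* UMI was found in 3.84% ± 0.295 of squamous and 1.66% ± 0.718 of airway basal cells at 5000 UMIs, near the 2.63% ± 1.63 of immune cells. *Lgr5* rested on 22 UMIs in all 2453 airway basal cells and 423 in the 8147 squamous ones. Its log2 difference was -2.66 without library 1 and -2.19 without library 3. *Dkk3* and *Sfrp1* were higher in squamous basal cells, by 1.00 and 0.65 on the log2 scale. *Fzd8* was the clearest airway gene, at 18.2, 18.1 and 19.9 CPM against 6.36, 6.63 and 6.53 CPM (log2 difference 1.52, SE 0.104, adjusted p = 8.7e-05). *Rspo3* was next, with 15.4, 10.9 and 8.03 CPM in airway and 4.49, 4.53 and 4.38 CPM in squamous basal cells (log2 difference 1.34, SE 0.249, adjusted p = 0.00831). The 8 fibroblast markers summed to 216, 195 and 287 CPM in airway and 84.5, 48.2 and 89.5 CPM in squamous basal cells. All 8 were detected except 1 in airway basal cells of library 2, and their part in the *Rspo3* level was not tested. The count of called genes fell to 5 without library 1, while calls over all genes fell from 2654 of 15266 to 712 of 15569. There *Axin2*, *Lgr5* and *Rspo3* also missed the threshold (adjusted p = 0.137, 0.0727 and 0.101). The count fell to 9 without library 3, with 2005 of 14694 called over all genes. *Axin2* and *Lgr5* missed the threshold again there (0.0643 and 0.0615), while *Wnt5b*, *Wnt6* and *Wnt11* missed it with stricter gates.

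The ciliated, suprabasal and neuroendocrine classes had a ligand or modulator pattern of their own, given here without a test. Ciliated cells had 136, 122 and 88.9 CPM of *Wnt11*, a ligand of polarity and cell movement, against 37.9, 48.0 and 16.9 CPM in fibroblasts, 2.18 ± 0.387 CPM in basal and 1.35 ± 0.289 CPM in secretory cells. At 5000 UMIs, 41.9% ± 5.10 of ciliated cells and 0.741% ± 1.28 of immune cells had a *Wnt11* UMI, a wide gap to background. *Wnt11* made up 25% ± 3.91 of the ligand UMIs of ciliated cells, and *Wnt4* 54.1% ± 1.37. Suprabasal cells, gated on *Krt13*, kept *Wnt4* at 544, 557 and 614 CPM but had 7.69, 7.10 and 6.99 CPM of *Wnt5b*, against 33.2, 30.8 and 33.7 CPM in squamous basal cells. Suprabasal *Lgr6* read 27.1, 31.3 and 38.3 CPM, against 137, 132 and 150 CPM. Neither gene overlapped between these classes. *Rspo3* was represented by 8 UMIs in all suprabasal cells. Neuroendocrine cells, seen in 2 libraries with at least 20 cells, had 25.5 and 36.8 CPM of the inhibitor *Sfrp5*, which rest on 52 UMIs, and *Wnt4* read 33.4 and 4.80 CPM there.

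Fibroblasts were split by their UMIs summed over *Hhip* and *Col23a1* into 2950 cells with at least 2 and 1541 cells with fewer. The second group can thus include cells with 1 such UMI. Earlier results of these data had grouped *Hhip* and *Col23a1* with *Wnt16*, and the split was chosen with them known. A *Wnt16* difference between the groups was thus fixed by that choice, and the split is a description with no test. *Wnt16* read 158, 156 and 134 CPM in the first and 4.99, 21.2 and 8.15 CPM in the second. *Lgr5* read 105, 122 and 97.3 CPM against 22.0, 32.4 and 37.6 CPM, and *Axin2* read 92.2, 80.1 and 71.1 CPM against 34.7, 34.0 and 34.1 CPM. *Rspo4* and *Wif1* followed, at 14.1 ± 4.78 against 0.966 ± 0.617 CPM and 317 ± 93.7 against 107 ± 28.1 CPM. *Wnt5a* had means of 185 and 179 CPM, the second ranging from 63.2 to 315 CPM over libraries, and *Sfrp1* was lower in the first group in libraries 1 and 3, at 105 and 75.6 against 278 and 221 CPM, and near equal in library 2 at 117.5 and 118.5 CPM.

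Within single fibroblasts, *Wnt16* was found more often with some of these genes and less often with others. Of cells with a *Wnt16* UMI, 45.1% ± 5.12 also had an *Axin2* UMI, against 21.4% ± 0.593 of those without *Wnt16* (SD over 3 libraries, 5000 UMIs per cell, 635 cells with *Wnt16*). For *Wif1* the shares were 56.9% ± 13.0 and 27.1% ± 6.21, for *Dkk2* 49.0% ± 3.27 and 22.0% ± 4.59, and for *Lgr5* 39.0% ± 6.58 and 18.5% ± 1.5. All 4 were more often found with *Wnt16* in each library. *Wnt5a* was found in 42.9% ± 5.95 and 40.6% ± 11.1, higher in 2 of 3 libraries, whereas *Sfrp1* was found in 4.38% ± 2.54 and 18.1% ± 3.61 and *Wnt2b* in 1.86% ± 0.598 and 6.61% ± 1.22, both less often with *Wnt16* in every library. Cells of a library share its background RNA, and these shares are a description.

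**Figure D5:**
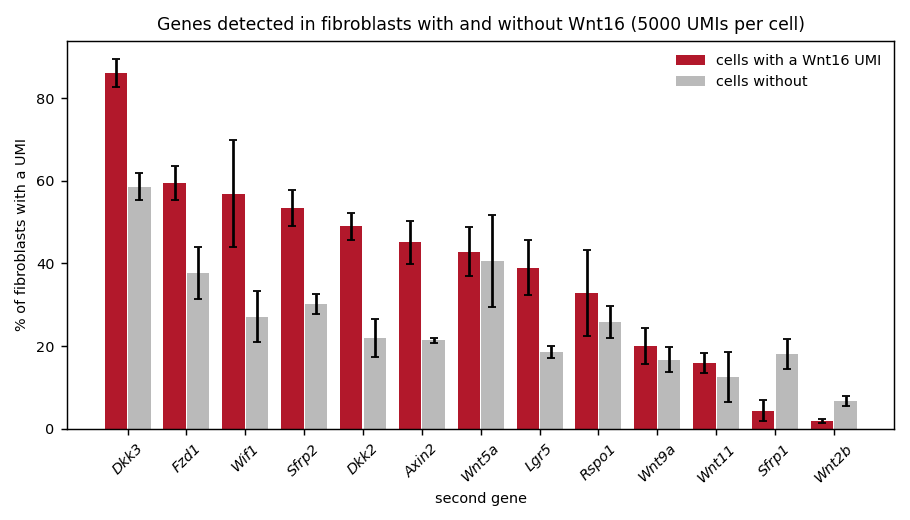
Share of fibroblasts with a UMI of a second gene, among cells with (red) and without (grey) a *Wnt16* UMI, after thinning to 5000 UMIs per cell. Bars are means and error bars SD over 3 libraries. *Axin2* was found in 45.1% against 21.4%, and *Sfrp1* in 4.38% against 18.1%.

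Muscle satellite cells, the stem cells of skeletal muscle, had *Fzd4* as their leading Frizzled gene. Of 38 genes tested against fibroblasts, 4 were higher in satellite cells and 27 in fibroblasts (edgeR), against 18.2% and 25.8% of all 13379 genes. With library as a block 32 of 39 were called, against 54.9% of all genes. The median log2 difference was -3.10 for these 38 and -0.01 for all genes. *Fzd4*, also the receptor for Norrin in vessels, read 199, 203 and 204 CPM in satellite cells and 32.9, 42.8 and 21.7 CPM in fibroblasts (log2 difference 2.59, SE 0.24, adjusted p = 7.22e-05), and made up 79.8% ± 1.15 of their Frizzled UMIs. *Wnt4* read 131, 130 and 90.0 CPM, above every fibroblast library and every immune library (log2 difference to fibroblasts 1.64, SE 0.201, adjusted p = 0.000336). A *Wnt4* UMI was found in 32.9% ± 3.96 of satellite cells and 6.24% ± 1.56 of immune cells at 5000 UMIs. The summed epithelial markers in satellite cells were between 41.9 and 109 CPM, and 37.5 to 79.5 CPM in fibroblasts, with all 10 detected in both, and their part in the *Wnt4* level was not tested. *Znrf3* was higher by 1.06 and *Wnt10a* by 1.41 on the log2 scale, the latter at 6.15 ± 1.69 CPM (adjusted p = 0.0133, and 0.0646 without library 1 or 0.0874 without library 2). Without doublet removal its log2 difference was 0.61 (adjusted p = 0.278). *Lrp6* had means of 237 ± 35.2 and 237 ± 15.8 CPM and was not called (log2 difference -0.05, SE 0.16, adjusted p = 0.83). No UMI of *Rspo2* or *Rspo4* was counted in satellite cells, which allows a level of up to 0.302 CPM each.

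Endothelial cells, compared with fibroblasts in the same way, had 4 genes higher and 26 lower of 38 tested (edgeR), against 17.8% and 20.9% of all 13506 genes. With library as a block 29 of 39 were called, against 39.6% of all genes. The median log2 difference was -2.80 for these 38 and -0.03 for all genes. The 4 higher genes were *Fzd4*, *Fzd6*, *Lrp5* and *Znrf3*, whereas *Fzd1*, *Fzd2*, *Fzd3*, *Fzd7*, *Lrp6*, *Lgr4* and *Lgr5* were among the lower ones. The call of *Fzd3* was lost without library 1 (adjusted p = 0.207). *Fzd4* read 234, 155 and 170 CPM, *Fzd6* read 106, 112 and 145 CPM, *Lrp5* read 73.3, 112 and 80.0 CPM, and *Znrf3* was higher by 0.63 on the log2 scale (SE 0.164, adjusted p = 0.0118, and 0.268 without library 1 or 0.0504 without library 3). *Fzd4*, *Fzd6* and *Lrp5* did not overlap with their fibroblast ranges, and their log2 differences were 2.62, 3.12 and 1.49 with adjusted p-values of 6.13e-05, 6.03e-07 and 0.00031. *FZD4* and *LRP5* are the known receptor pair for Norrin in retinal vessels. Endothelial *Wnt4*, at 22.4, 6.07 and 63.0 CPM, overlapped with its fibroblast and immune ranges and was not called, and no *Wnt16* UMI was counted, which allows up to 0.572 CPM. Libraries 2 and 3 held 30 and 48 endothelial cells, so their levels rest on few cells.

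Cells with and without an *Lrig1* UMI were compared within epithelial cells and within fibroblasts. The epithelial sums pooled basal, suprabasal, secretory, ciliated and all other epithelial classes. The mix of classes was not matched between *Lrig1*+ and *Lrig1*- cells, and its part in the differences was not tested. In edgeR none of the 38 genes tested was called in either class, and 3 in each had an unadjusted p under 0.05, *Fzd3*, *Rspo3* and *Wif1* in epithelial cells and *Wnt2b*, *Wnt4* and *Fzd9* in fibroblasts. Over all genes the calls were 0% in both, and 4.34% of genes in epithelial cells and 1.17% in fibroblasts had an unadjusted p under 0.05. DESeq2 called 1 gene, *Fzd3*, in epithelial cells and 0 in fibroblasts, against 71 of all 22237 genes and 0 of all 17756. Both sums of a library were taken from one pool of larynges, and with library as a block 12 of the 38 genes were called in epithelial cells, 8 higher and 4 lower in *Lrig1*+ cells, against 5.40% and 6.66% of all genes. In fibroblasts 0 of 39 were called with the block, where 12 of all 14486 genes were, and 9 of the 39 had an unadjusted p under 0.05, against 6.07% of all genes.

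The epithelial differences under the block were 0.32 or less in size on the log2 scale for 7 of the 9 genes also called with thinned cells, *Rspo3* and *Wif1* being the others. *Rspo3* was 0.62 higher (8.31 ± 1.41 against 5.21 ± 0.423 CPM, adjusted p = 0.0148 with the block), and *Wif1* had a difference of -1.46 from low levels (0.491 ± 0.347 against 1.31 ± 0.696 CPM, adjusted p = 0.0153 with the block). *Fzd3* read 51.9 ± 0.770 CPM in *Lrig1*+ and 40.7 ± 1.29 CPM in *Lrig1*- epithelial cells, 0.32 higher on the log2 scale (SE 0.0307, adjusted p = 0.00818 with the block, 0.717 without). *Lgr6* was 0.24 higher (114 ± 14.5 against 94.6 ± 14.9 CPM, adjusted p = 0.0116 with the block, 1.0 without), *Rnf43* 0.21 and *Znrf3* 0.18 higher. *Wnt10a* had a log2 difference of -0.26 (61.5 ± 22.6 against 72.7 ± 31.3 CPM, adjusted p = 0.0272 with the block). *Lrig1*+ epithelial cells were also deeper, with medians of 17007 to 19832 UMIs per library against 8291 to 11953. *Lrig1* status was set before thinning, so thinning did not remove depth from these labels. Cells under 5000 UMIs were dropped. Of 3189, 1743 and 6259 *Lrig1*- cells, 2086, 1352 and 4639 were kept. Of 3529, 3058 and 8583 *Lrig1*+ cells, 3282, 2970 and 8172 were kept. With the kept cells thinned to 5000 UMIs and with the block, 12 of 33 genes were called, against 18.2% of all genes. Without thinning, 12.1% of all genes were called with the block. Of the 12 genes called with thinned cells, 9 were also called without thinning: *Fzd3*, *Lgr6*, *Lrp6*, *Rnf43*, *Rspo3*, *Sfrp1* and *Znrf3* higher and *Wif1* and *Wnt10a* lower. The difference in the *Lrig1* contrast between epithelial cells and fibroblasts was itself tested as an interaction, and edgeR called 0 of 41 genes, with 2 at an unadjusted p under 0.05, *Wnt4* and *Rspo3*, against 2.29% of all genes. DESeq2 called 0 of 46, also with 2 under 0.05, against 2.22% of all genes. With library as a block 0 of 43 were called and 4 had an unadjusted p under 0.05, against 5.39% of all genes.

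Other genes of the pathway were followed as 79 genes in 6 lists by function. Of 75 tested between epithelial cells and fibroblasts, 25 were higher in epithelial cells and 30 in fibroblasts, with a median log2 difference of -0.01, against 31.3% and 28.7% of all genes. Among 29 cytoplasmic and nuclear components of the beta-catenin pathway, 8 were higher and 6 lower. Polarity genes were split evenly, 5 and 5 of 12, with the atypical cadherins *Celsr1* and *Celsr2* higher in epithelial cells by 5.15 and 4.49 on the log2 scale and *Daam2*, a formin, lower at -6.94 (log2 scale). Of 7 genes for ligand secretion and processing, 2 were higher and 4 lower, of 10 co-receptors and alternative receptors 6 and 4, of 6 further extracellular inhibitors 1 and 5, and of 11 targets and feedback genes 3 and 6. *Igfbp4*, which binds growth factors and LRP6, had 8.23 ± 4.82 CPM in epithelial cells and 2280 ± 190.7 CPM in fibroblasts. *Twist1* had the largest difference of the target genes named (log2 difference -8.71, SE 0.502, adjusted p = 8.11e-06), at 206 ± 39.3 CPM in fibroblasts, and *Ccnd1*, encoding cyclin D1, was higher at 230 ± 81.2 against 56.0 ± 20 CPM.

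Between basal and secretory cells 19 of 66 of these genes were higher in basal and 14 in secretory cells, against 13.0% and 16.6% of all genes, *Myc* among the former (1.54, SE 0.116, adjusted p = 5.64e-05). Between airway and squamous basal cells, 11 of 66 of these genes were higher in airway and 6 in squamous cells, against 9.39% and 7.99% of all genes. *Gpc6*, a glypican of the cell surface, had the largest airway difference (2.73, SE 0.268, adjusted p = 0.000411). *Porcn*, the enzyme that lipidates Wnt ligands, was higher by 1.24 (SE 0.235, adjusted p = 0.00882) at 59.9 ± 22.0 against 25.4 ± 3.53 CPM. *Myc* and *Ascl2*, known targets, were higher in squamous basal cells, at log2 differences of -0.82 and -0.78. Satellite cells had 8 of 70 higher and 32 lower than fibroblasts, against 18.2% and 25.8% of all genes. Endothelial cells had 13 of 69 higher and 28 lower, against 17.8% and 20.9%. *Nkd1*, a feedback inhibitor, had no UMI in satellite cells, which allows up to 0.302 CPM, and 45.2 ± 9.79 CPM in fibroblasts, while *Ror1*, an alternative receptor for WNT5A, read 1041 ± 111 CPM in satellite cells and 193 ± 52.6 CPM in fibroblasts. In endothelial cells the pathway transcription factor *Lef1* was higher than in fibroblasts by 4.0 on the log2 scale (SE 0.434, adjusted p = 5.56e-05), and *Notum*, an enzyme that strips the lipid from Wnt ligands, was at 0.444 ± 0.769 CPM against 111 ± 19.8 CPM.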

How the data were processed

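The 3 libraries of tdTomato-sorted laryngeal cells were prepared with a 10x Genomics 3′ kit. Per the submitters' processing notes, the authors aligned the reads to GRCm39 (mm39) with Cell Ranger 8.0.1 and deposited UMI counts per gene and barcode as whole numbers without normalization. Whether intronic reads were counted and strand was used is not given in the sources used here, so levels of long genes such as *Lrp6* and *Znrf3* may include intronic reads, and UMIs of genes that overlap on opposite strands (*Wnt10b* and *Wnt1*) could be shared. A 3′ UMI count is not divided by gene length, and genes differ in capture. The 3 libraries held 211727921, 147898790 and 413632222 UMIs.

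From these counts, barcodes were kept if they had 500 to 8000 genes and 1000 to 40000 UMIs, with no more than 8% of UMIs from mitochondrial genes, following the limits of the study read as genes and UMIs. Doublets were scored by the share of simulated doublets among 30 neighbours on 30 principal components and removed at 0.4% per 1000 barcodes, 4851 in all, which left 44542 cells. A lineage needed 2 marker genes and 3 UMIs, and mixed cells were left out. UMIs were summed per class and library where 20 cells or more were present, and tested with edgeR 4.0.16 (R 4.3.3; TMM, filterByExpr, quasi-likelihood test, Benjamini-Hochberg over all genes tested) without covariates. Gate genes were left out of the tests. The SE printed with an edgeR difference is its absolute log2 value divided by the square root of the F value of the test. The test was first run on simulated data. DESeq2 1.42.0, other scaling, filters, gates, depth and libraries left out one at a time were alternatives. Replicate numbers stand for the library, so equal numbers share one pool of animals, and deviations of such sums from the class means correlated at 0.119 to 0.811 over all pairs of classes but endothelial cells and fibroblasts (0.00585 to 0.162). With 3 against 3 sums an exact permutation test cannot go below 0.1, so the fit across all genes was used. Without the block, the p-values measure the spread of sums within a class over 3 pools of animals. That fit treats the 2 sums of a pool as independent, and only the block uses their pairing.

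Genes with at least 100 UMIs over all cells are given by value and the rest by range. Of other pathway genes, at most 3 a direction are named, the largest called ones, with a mean of 10 CPM or more over the sums and the same direction in every library. The genes, classes and lists were chosen with earlier results of these data known. Promoter sequences are RefSeq, coordinates of genes GENCODE vM39. Intervals and limits cover counting error only. Wnt pathway genes without an entry in the promoter table were not looked for elsewhere.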

Additional observations from a re-analysis of the deposited data

How the results depend on the processing

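Of the 261 differences of single genes tested in the 7 comparisons, recomputed under up to 12 alternatives to give 3050 values, 87 values lost the threshold, 66 gained it and 0 changed direction with a call. Most losses, 55, came from leaving out a library, and most gains, 44, from the replicate block with all UMIs (25) or with thinned cells (19). The count of Wnt pathway genes called stayed within 1.5 times its value in the comparisons of epithelial cells, satellite cells and endothelial cells with fibroblasts, where leaving out a library gave 36 to 38, 28 to 29 and 25 to 30 genes. For basal against secretory cells the range was 10 to 18 and for airway against squamous basal cells 5 to 10. In the *Lrig1* contrast of epithelial cells, the replicate block called 12 genes, with thinned cells again 12, and DESeq2 called 1, against 0 in the fit without a block; leaving out a library gave 0 to 0. The replicate block called 0 genes for *Lrig1* in fibroblasts and for the interaction. In the other 5 comparisons, whose counts with the block stand beside their results, it lost *Wnt10b* in epithelial cells (adjusted p = 0.053) and *Wnt6* in endothelial cells (adjusted p = 0.0773). It gained *Fzd2*, *Fzd7*, *Lgr5*, *Lgr6*, *Lrp6*, *Wif1* and *Axin2* between basal and secretory cells, *Fzd10*, *Lgr4*, *Lrp5*, *Lrp6* and *Znrf3* between airway and squamous basal cells, *Lgr4* in satellite cells, and *Wnt1* and *Wnt3*, not tested without it, between epithelial cells and fibroblasts.

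Over all genes the calls moved more than 1.5 times from 4705 to 7929 (block) and 1834 (without library 1) for basal against secretory cells, from 2654 to 5648 (block), 1647 (thinned) and 712 (without library 1) for airway against squamous basal cells, and from 0 to 2241 (block), 2867 (block, thinned) and 71 (DESeq2) for *Lrig1* in epithelial cells. Without library 1 they fell from 11103 to 7361 for epithelial, from 5881 to 3133 for satellite and from 5228 to 2762 for endothelial cells against fibroblasts. For *Lrig1* in fibroblasts 0 became 12 (block) and 13 (block, thinned), and for the interaction 0 became 1 (block) and 2 (DESeq2). The summed R-spondin level of epithelial cells, 7.56 CPM, was 5.78 CPM with stricter gates and 8.89 CPM with gates without *Dcn*. The gates without *Dcn* and the block on thinned cells were chosen after seeing the data. The cause of these shifts was not tested. Depth limits the 9 scarce genes, the 578 endothelial cells and the rare epithelial classes.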
